A study of Mus musculus with 17 samples.

Results

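Markers of resting and progenitor-like fibroblasts were followed by day in sorted cardiac fibroblasts (CFs) after myocardial infarction (MI). The 10 members, *Pi16*, *Dpp4*, *Cd34*, *Ly6a*, *Ly6c1*, *Cd248*, *Dpep1*, *Gsn*, *Hsd11b1* and *Scara5*, were taken by name, as the rows of the count table whose Ensembl mouse identifier carries that symbol. They are 10 of 31053 genes listed, and each of them was among the 14030 genes with enough counts to be tested, so that no member was lost to the filter on low values. Bulk RNA-seq of transcript 3′ ends was available for 17 libraries, with 3 each at 1, 2, 4 and 6 days post-infarction (dpi), 4 at 3 dpi and 1 at 5 dpi. All of them came from infarcted hearts of C57BL/6 mice of 8 to 10 weeks that carry GFP under the *Col1a1* promoter, and in each the GFP+/CD31-/CD45- cells were sorted. No uninjured heart was analysed here, so the earliest reference is 1 dpi and a level before MI is unknown. The reporter marks cells in which the collagen promoter is active, and a fibroblast that does not use it is not sorted by GFP. The methods of the paper also describe an enrichment on beads with the antibody mEFSK4 before the sort. They name that antibody beside GFP, joined by and/or, as a basis of the sort. In bulk samples, fewer cells of a type and less RNA per cell cannot be told apart.

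Fibroblasts of uninjured tissue are not uniform. A population around larger vessels, the adventitial fibroblasts, carries *Pi16*, *Dpp4*, *Ly6a* and *Cd34*, and is often described as progenitor-like, whereas the fibroblasts between the cardiomyocytes carry enzymes and receptors of a quiescent stroma, among them *Dpep1*, *Hsd11b1* and *Scara5*. After MI, resident fibroblasts leave the resting state, divide and turn into matrix-producing cells, and resting markers are commonly used to follow this exit.

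The members did not move as one group. *Ly6a*, *Ly6c1* and *Pi16* were high at 1 and 2 dpi, were lowest at 3 dpi and were back in the range of 1 dpi, or above it, by 6 dpi. *Hsd11b1* and *Scara5* were still high at 3 dpi and lowest at 6 dpi, and *Cd248* was highest at 6 dpi. Over the whole time course, 7 of the 10 members passed an adjusted p of 0.05 in edgeR's quasi-likelihood F-test, where 15% of all genes tested did, with adjusted p between 0.0006 for *Hsd11b1* and 0.0494 for *Scara5*. The 3 others were *Dpp4* (adjusted p = 0.772), *Cd34* (adjusted p = 0.256) and *Gsn* (adjusted p = 0.280). The calls of *Ly6a*, *Ly6c1* and *Pi16* passed in each of 22 alternative fits of the time course, whereas that of *Scara5* passed in 6 of them.

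**Figure D1:**
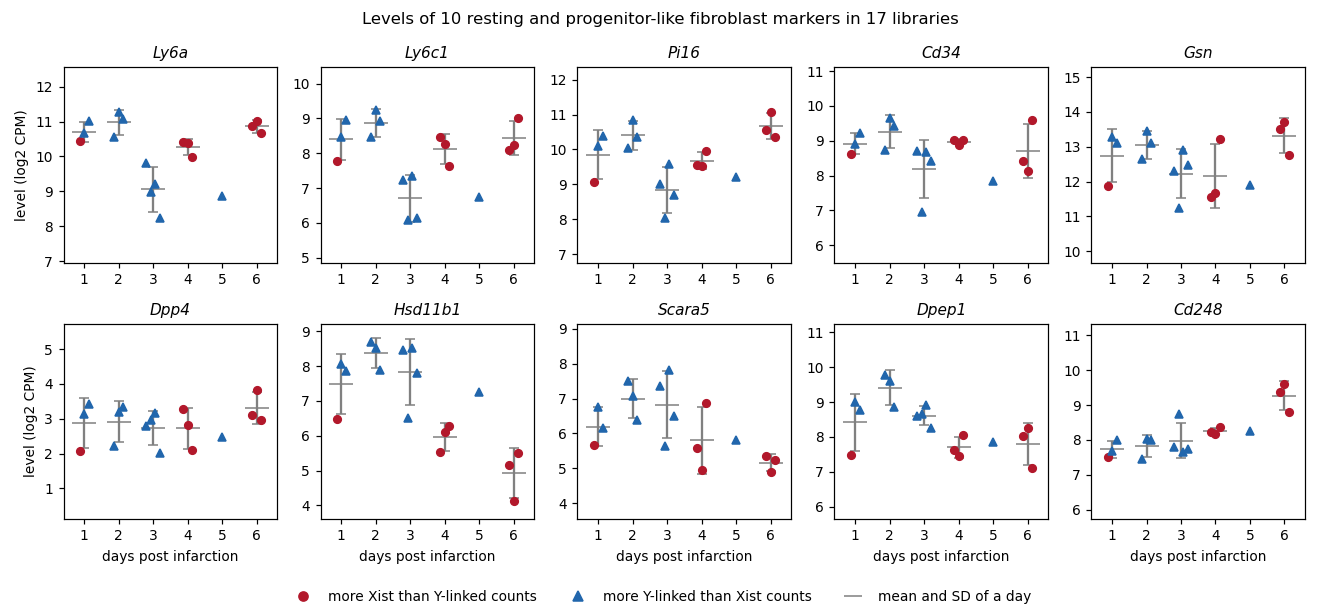
Level of each member (log2 CPM, TMM-normalized) against days post-infarction, with 1 point per library, its colour and shape giving the sex-linked pattern of the library, and a grey bar for the mean and SD of a day with replicates. Every panel spans the same number of log2 units. *Ly6a* and *Ly6c1* dip at 3 dpi and in the 5 dpi library, *Hsd11b1* falls late, and *Cd248* is highest at 6 dpi.

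The libraries differed in ways other than day, which bears on each comparison. In the count table, column labels at 3 dpi have a form of their own. Columns of every other day, 5 dpi included, carry a shared prefix and a running sample number. Whether 3 dpi was prepared or sequenced apart from the rest is not given in the sources used here. In each comparison with a replicated day, 3 dpi and this label form change together, and an effect of batch was not tested. Total counts ran from 8021815 to 22029938 with a median of 14123952, and were lower at 3 dpi (8465454 to 14123952) than at 2 dpi (17180039 to 18866820). The 4 and 6 dpi libraries carried *Xist*, the RNA of the inactive X chromosome, at 85.7 CPM or more and at most 0.768 CPM of 4 Y-linked genes together. The 2, 3 and 5 dpi libraries had the opposite pattern, with at least 42.8 CPM of the Y-linked genes and at most 2.73 CPM of *Xist*, and 1 dpi held both patterns, mostly *Xist* in replicate 1 and mostly Y-linked genes in replicates 2 and 3. Replicates 1 and 2 of 1 dpi were mixed, with 10.6 CPM of the Y-linked genes beside 211 CPM of *Xist* in replicate 1 and 19.0 CPM of *Xist* beside 59.98 CPM of the Y-linked genes in replicate 2. The labels do not give the sex of the mice. The comparisons of 3 with 2 dpi and of 6 with 4 dpi were therefore made within a pattern, whereas in those of 4 with 3 dpi and of 6 with 3 dpi the day and the pattern change together and cannot be told apart by these libraries alone. A fit with the pattern as a term, chosen after the data were seen, rests for these days on the 1 dpi libraries, of which replicate 1 had the lowest total count of all and the lowest level of each of the 10 members among the 1 dpi libraries. Its values are given beside results of the members, and not for the further genes of both populations named below. Among libraries of the same day, 3 dpi replicate 2 stood apart, with a mean Pearson r of 0.867 to the others of its day where all other replicated libraries had at least 0.921, and results that involve 3 dpi were recomputed without it. The sorted cells carried the fibroblast markers at 12281 to 37950 summed CPM for 7 genes. Of 8 endothelial markers, *Cdh5* and *Cldn5* were at 0 in 10 and 12 of 17 libraries. *Pecam1*, *Egfl7* and *Fabp4* were detected in every library, and the 8 together had 11.8 to 152 summed CPM.

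The largest estimates at 3 dpi were those of the Ly6 family, *Ly6a* and *Ly6c1*, small proteins held to the membrane by a lipid anchor. *Ly6a*, also known as Sca-1 and used to sort progenitor-like cells, lies at chr15:74994877-74998031 on the minus strand of GRCm38. It had 1393, 1622 and 2076 CPM in the libraries of 1 dpi, and 1522, 2497 and 2153 CPM at 2 dpi. At 3 dpi it had 891, 506, 593 and 299 CPM, each below every library of the days before. The next values were 1371, 1340 and 1022 CPM at 4 dpi and 467 CPM in the 5 dpi library. The 6 dpi libraries had 1888, 2087 and 1634 CPM, within the range of the first days. *Ly6a* was 3.60-fold lower at 3 than at 2 dpi, a log2 fold change of -1.85 (SE 0.31), with adjusted p = 0.0039, and -1.57 (SE 0.31) against 1 dpi, with adjusted p = 0.0037. Between 3 and 6 dpi it rose 3.27-fold, by 1.71 (SE 0.31) on the log2 scale, with adjusted p = 0.0009.

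*Ly6c1*, which is also abundant on endothelial cells, lies in the same cluster at chr15:75044018-75048830, minus strand. Its 1 dpi libraries had 220, 357 and 493 CPM, and those of 2 dpi had 351, 605 and 482 CPM. At 3 dpi the values were 152, 67.5, 161 and 70.7 CPM, which again did not overlap with either earlier day. *Ly6c1* was at 354, 309 and 200 CPM at 4 dpi, at 107 CPM in the 5 dpi library, and at 271, 304 and 510 CPM at 6 dpi. It fell 4.25-fold from 2 to 3 dpi (log2 fold change -2.09, SE 0.36, adjusted p = 0.0042), and the 3 dpi libraries were also lower than those of 1 dpi (-1.66, SE 0.36, adjusted p = 0.0073). It was the single member called higher at 4 than at 3 dpi, by 1.35 (SE 0.36, adjusted p = 0.0457), while the estimate of *Ly6a* missed the threshold (1.12, SE 0.31, adjusted p = 0.0542). From 3 to 6 dpi the log2 fold change of *Ly6c1* was 1.68 (SE 0.36, adjusted p = 0.0030).

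The pair cannot be counted fully apart. Of the 60-base stretches in annotated transcripts of *Ly6c1*, 27.1% also occur in *Ly6a* or *Ly6c2*, and of those of *Ly6a*, 14.1% occur in *Ly6c1*, *Ly6i* or *I830127L07Rik*, so reads from these stretches could be split between genes or dropped by the counting. These shares are over whole transcripts, and the share at the 3′ ends that were read was not computed. *Ly6c2*, the closest relative of *Ly6c1* and not a member, had 48.2 to 78.1 CPM at 2 dpi, 3.06 to 35.2 CPM at 3 dpi and 29.9 to 57.6 CPM at 6 dpi. Its log2 fold change from 2 to 3 dpi was -1.67 (SE 0.49) and did not pass the threshold.

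Promoters are shown for *Ly6c1* and *Ly6c2*, as neighbours that both had their lowest mean at 3 dpi, and for *Pi16* and *Hsd11b1*, as members whose lowest days differed. Each is the 250 bases before the RefSeq transcription start on GRCm38.p6, written 5′ to 3′ on the strand of the gene. The windows of *Pi16* and *Hsd11b1* lie inside the gene spans given below, so another annotated start lies upstream of each. Which start the sorted cells use was not tested. Capitals mark CCAAT, the box bound by the factor NF-Y, and CAGCTG, an E-box, both letters searched on either strand after the data were seen.
Ly6c1, chr15:75048838-75049087, minus strand: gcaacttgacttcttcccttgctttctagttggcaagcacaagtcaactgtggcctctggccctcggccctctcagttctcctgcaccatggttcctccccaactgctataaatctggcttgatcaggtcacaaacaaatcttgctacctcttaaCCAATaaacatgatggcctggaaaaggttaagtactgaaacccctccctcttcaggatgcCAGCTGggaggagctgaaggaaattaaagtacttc
Ly6c2, chr15:75111972-75112221, minus strand: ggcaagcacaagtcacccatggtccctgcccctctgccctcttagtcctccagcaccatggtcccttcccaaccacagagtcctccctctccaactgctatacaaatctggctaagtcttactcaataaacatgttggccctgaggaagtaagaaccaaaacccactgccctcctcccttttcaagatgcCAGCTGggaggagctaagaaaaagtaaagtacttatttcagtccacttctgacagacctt
Pi16, chr17:29318632-29318881, plus strand: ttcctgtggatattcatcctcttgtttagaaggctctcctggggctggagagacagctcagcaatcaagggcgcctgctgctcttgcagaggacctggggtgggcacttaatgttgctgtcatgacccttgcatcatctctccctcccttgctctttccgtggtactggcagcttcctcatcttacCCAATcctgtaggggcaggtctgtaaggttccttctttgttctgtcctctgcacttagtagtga
Hsd11b1, chr1:193242361-193242610, minus strand: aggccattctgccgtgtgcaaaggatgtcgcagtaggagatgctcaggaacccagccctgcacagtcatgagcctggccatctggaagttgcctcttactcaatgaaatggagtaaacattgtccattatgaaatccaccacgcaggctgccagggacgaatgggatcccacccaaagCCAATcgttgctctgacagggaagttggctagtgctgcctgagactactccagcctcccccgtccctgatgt
The *Ly6c1* and *Ly6c2* windows align with 171 identical bases in 290 columns, or 59%, and both hold CAGCTG near the start. CCAAT occurs in 3 of 7 member promoters (*Pi16*, *Ly6c1* and *Hsd11b1*), and in 34.5% of 27025 promoters of the same length. CAGCTG occurs in 2 of the 7 (*Ly6c1* and *Gsn*), and in 12.7% of the 27025. Letters of the TATA box, GC box, AP-1 and TEAD motifs were also searched and are not marked. The table of promoters held 7 of the 10 members and not *Ly6a*, *Cd248* or *Scara5*. A match of letters is a description and not evidence of a bound site.

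*Pi16*, a peptidase inhibitor of the cell surface and the best known marker of adventitial fibroblasts, is at chr17:29317680-29330593 on the plus strand, where an antisense gene model overlaps it, as one does *Cd34* and *Dpp4*, and whether strand was used in the counting is not given in the sources used here. It had 537, 1105 and 1337 CPM at 1 dpi and 1046, 1853 and 1311 CPM at 2 dpi. In the 3 dpi libraries the values were 517, 261, 772 and 416 CPM, below each library of 2 dpi but overlapping with those of 1 dpi. *Pi16* had 750, 738 and 997 CPM at 4 dpi, 592 CPM in the 5 dpi library and 1521, 2167 and 1302 CPM at 6 dpi. The 3 dpi libraries were 2.86-fold lower than those of 2 dpi (log2 fold change -1.51, SE 0.35, adjusted p = 0.0242), and the difference to 1 dpi missed the threshold (-1.01, SE 0.35, adjusted p = 0.086). The rise from 3 to 6 dpi was 3.39-fold, or 1.76 (SE 0.35) on the log2 scale, with adjusted p = 0.0019. The call between 2 and 3 dpi was lost when 2 dpi replicate 2 was left out (-1.26, adjusted p = 0.156), and also without 2 dpi replicate 3, 3 dpi replicate 1 or 3 dpi replicate 4, and in a fit of both days alone (-1.52, adjusted p = 0.0625).

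Thus 3 of the 10 members were called lower at 3 than at 2 dpi, where 1.12% of all genes were, and none was called higher, where 1.82% were. In 4 members, the 3 called and *Cd34*, the libraries of both days did not overlap, as in 8.95% of all genes in that direction. The median log2 fold change of the 10 members was -0.80, and that of all genes tested was 0.04. Against 1 dpi, 2 members were called lower at 3 dpi, with a background of 2.68%, and none higher (background 4.33%). Without 3 dpi replicate 2 the log2 fold changes from 2 to 3 dpi were -1.79 for *Ly6a* (adjusted p = 0.0041), -1.91 for *Ly6c1* (adjusted p = 0.0051) and -1.30 for *Pi16* (adjusted p = 0.0268), so these calls do not rest on that library.

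At 3 dpi the leukocyte markers were also at their highest, with 37.5 to 163 summed CPM for 8 genes against 7.56 to 17.5 CPM at 2 dpi, and were at 52.2 CPM in the 5 dpi library. *Lyz2* reached 124 CPM and *Csf1r* 32.6 CPM in single libraries, 7 of the 8 genes had over 3 counts at 3 dpi, and *Cd3e* was at 0 in all libraries and *Ptprc* in 12 of 17. The share of mitochondrial counts was lower at 3 dpi (0.321% to 0.782%) than at 2 dpi (1.35% to 1.70%). The part of either in the dip was not tested. Endothelial cells carry *Ly6c1*, *Ly6a* and *Cd34*, and the 8 endothelial markers together had 22.7 to 145 CPM at 2 dpi, 32.2 to 152 CPM at 3 dpi and 11.8 to 30.6 CPM at 6 dpi. Of these markers *Fabp4* reached 130 CPM in a single library, and no other exceeded 26.4 CPM. The highest *Ly6a* and *Ly6c1* levels of all libraries were in 2 dpi replicate 2, which had the 145 CPM. The 152 CPM was that of 3 dpi replicate 1, with *Ly6a* at 891 CPM and *Ly6c1* at 152 CPM. The 22.7 CPM was that of 2 dpi replicate 3, with *Ly6a* at 2153 CPM and *Ly6c1* at 482 CPM. The part of endothelial RNA was not tested. *Pecam1*, which encodes the CD31 used in the sort, did not exceed 12.8 CPM in any library.

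The 5 dpi library was like those of 3 dpi in *Ly6a* and *Ly6c1*. Its *Ly6a* (467 CPM) and *Ly6c1* (107 CPM) lay inside the range of the 3 dpi libraries and below every library of 1, 2, 4 and 6 dpi. Its *Pi16* (592 CPM) lay inside the range of 3 dpi and also inside that of 1 dpi. This library shares the Y-linked pattern with the 3 dpi libraries. Among libraries of that pattern, the last day with a high level of *Ly6a* and *Ly6c1* was thus 2 dpi, and the return was seen only in libraries with *Xist*. With 1 library at 5 dpi, this has no replicate check.

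This comparison and those of 3 dpi with the days before share the 3 dpi libraries. Between 3 and 6 dpi, 4 members were called higher (*Pi16*, *Ly6a*, *Ly6c1* and *Cd248*) and 2 lower (*Hsd11b1* and *Scara5*). The share of all genes called in this comparison was 9.46% in the higher and 10.3% in the lower direction. With the sex-linked pattern as a term, *Pi16* alone stayed past the threshold, with 2.95 (SE 0.67) and adjusted p = 0.0291. In that fit the estimate of *Ly6a* was 2.12 (SE 0.62, adjusted p = 0.0765) and that of *Ly6c1* was 2.63 (SE 0.70, adjusted p = 0.0541), both higher than without the term and with a larger error. The 6 cardiomyocyte markers were also higher at 6 dpi (60.1 to 115 summed CPM, all 6 genes over 3 counts) than at 3 dpi (3.46 to 8.48 CPM, 5 of 6 genes), with *Ryr2* at 0 in 10 of 17 libraries, and their part in these differences was not tested. The 6 mesothelial markers had 599 summed CPM in 6 dpi replicate 2 and at most 205 CPM in any other library, and that library had the highest *Pi16*, *Cd248*, *Gsn* and *Dpp4* of all 17. Without it the rise from 3 to 6 dpi was 1.52 for *Pi16* (adjusted p = 0.0169) and 1.07 for *Cd248* (adjusted p = 0.0342).

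**Figure D2:**
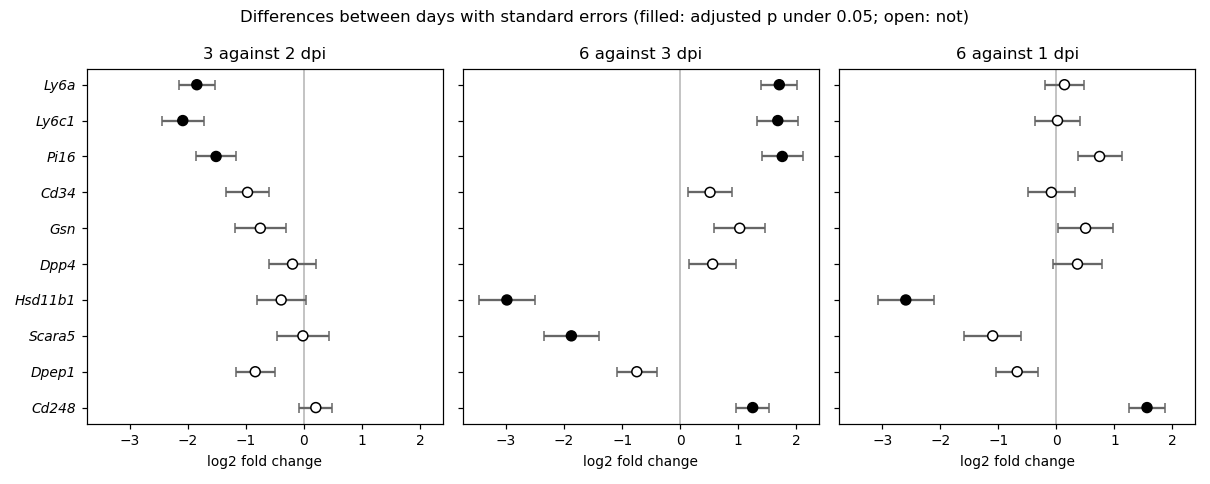
Log2 fold change of each member (x axis) at 3 against 2 dpi, 6 against 3 dpi and 6 against 1 dpi, with 1 standard error to each side, filled where the adjusted p was under 0.05. *Ly6a*, *Ly6c1* and *Pi16* are left of 0 in the first panel and right of 0 in the second, and *Hsd11b1* and *Cd248* are the members filled in the third.

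The fall of *Hsd11b1* was seen at later days. This gene, at chr1:193221634-193264075 on the minus strand, encodes the enzyme that regenerates active glucocorticoid from its inert form inside the cell. Its libraries had 90.0, 269 and 233 CPM at 1 dpi, 417, 368 and 237 CPM at 2 dpi, and 354, 90.2, 369 and 224 CPM at 3 dpi. At 4 dpi the values dropped to 45.8, 68.3 and 77.6 CPM, the 5 dpi library had 152 CPM, and 6 dpi had 35.8, 17.4 and 44.9 CPM. Every 4 dpi library was below every earlier library, and every 6 dpi library was below every 4 dpi library. The difference between 4 and 3 dpi was 4.06-fold (log2 fold change -2.02, SE 0.46, adjusted p = 0.0200), that between 6 and 3 dpi was 7.92-fold (-2.99, SE 0.48, adjusted p = 0.0003), and that between 6 and 1 dpi was 6.04-fold (-2.59, SE 0.48, adjusted p = 0.0019).

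The level of *Hsd11b1* also followed the sex-linked pattern, though both groups nearly touched. All 7 libraries with *Xist* had at most 90.0 CPM and all 10 libraries with the Y-linked pattern had at least 90.2 CPM. The 90.0 CPM was that of 1 dpi replicate 1, the *Xist* library of that day, which was the lowest of its day for all 10 members. The 90.2 CPM was that of 3 dpi replicate 2, the library that stood apart from its day. With the pattern as a term the estimates were -0.54 (SE 0.74, adjusted p = 0.844) between 4 and 3 dpi, -1.51 (SE 0.73, adjusted p = 0.276) between 6 and 3 dpi and -1.46 (SE 0.56, adjusted p = 0.13) between 6 and 1 dpi. Within the *Xist* libraries, *Hsd11b1* was lower at 6 than at 4 dpi in every library, with an estimate of -0.96 (SE 0.46) that did not pass the threshold (adjusted p = 0.25). Within the Y-linked libraries, the 5 dpi library was below the lowest of 2 dpi and inside the range of 3 dpi.

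*Scara5*, a scavenger receptor that takes up ferritin and so brings iron into the cell (chr14:65666403-65764826, plus strand), had a like course at lower counts. It had 50.8, 108 and 71.6 CPM at 1 dpi, 182, 135 and 84.0 CPM at 2 dpi, and 163, 50.2, 225 and 89.6 CPM at 3 dpi. The later values were 47.8, 30.9 and 116 CPM at 4 dpi, 56.1 CPM in the 5 dpi library and 40.7, 29.5 and 37.8 CPM at 6 dpi. The 6 dpi libraries were thus below all libraries of 1, 2 and 3 dpi, and those of 4 dpi were spread, with replicate 3 at more than the others of its day. *Scara5* was 3.67-fold lower at 6 than at 3 dpi (-1.87, SE 0.48, adjusted p = 0.0097), and its difference to 1 dpi was not called (-1.10, SE 0.49, adjusted p = 0.147). The call was lost without 6 dpi replicate 2 (-1.75, adjusted p = 0.0575) and with the pattern as a term (-1.05, SE 0.84, adjusted p = 0.522).

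*Dpep1*, a membrane dipeptidase at chr8:123186242-123201812 on the plus strand, was called over the time course (adjusted p = 0.0133) but in no comparison of 2 days. It had 178, 512 and 440 CPM at 1 dpi, 887, 777 and 462 CPM at 2 dpi, 390, 402, 483 and 309 CPM at 3 dpi, and 196, 176 and 265 CPM at 4 dpi. The 5 dpi library had 231 CPM and the 6 dpi libraries had 262, 307 and 138 CPM. Its highest day was 2 dpi, and the libraries of 4 and 6 dpi all lay below those of 3 dpi, although 6 dpi replicate 2 (307 CPM) and 3 dpi replicate 4 (309 CPM) nearly touched. The difference between 4 and 3 dpi was -0.90 (SE 0.35, adjusted p = 0.17). With the pattern as a term its sign turned, to 0.52 (SE 0.56) between 4 and 3 dpi and 0.68 (SE 0.56) between 6 and 3 dpi.

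*Cd248* took the opposite course. It encodes endosialin, a transmembrane protein of mesenchymal cells that pericytes and activated fibroblasts also carry, and lies at chr19:5068078-5070682, plus strand. The levels were 182, 206 and 256 CPM at 1 dpi, 176, 261 and 257 CPM at 2 dpi and 223, 428, 200 and 215 CPM at 3 dpi. They were 302, 289 and 328 CPM at 4 dpi, 308 CPM in the 5 dpi library and 670, 783 and 448 CPM at 6 dpi. All 6 dpi libraries were above all others, and 3 dpi replicate 2 was the closest of the earlier ones. *Cd248* was 2.95-fold higher at 6 than at 1 dpi (1.56, SE 0.31, adjusted p = 0.0029) and 2.38-fold higher at 6 than at 3 dpi (1.25, SE 0.28, adjusted p = 0.0043). Between 6 and 4 dpi, within the *Xist* libraries, the estimate was 1.05 (SE 0.30, adjusted p = 0.089). With the pattern as a term the rise from 1 to 6 dpi was 1.80 (SE 0.48, adjusted p = 0.0390), and that from 3 to 6 dpi was 1.60 (SE 0.56, adjusted p = 0.128). The 6 mural cell markers, which include *Rgs5* and *Notch3* of pericytes, were also higher in each 6 dpi library (142 to 173 summed CPM) than in each of 1 dpi (41.0 to 76.8 CPM), with all 6 genes above 3 counts on both days. Their part in the rise was not tested, and the 5 dpi library had the highest sum (208 CPM) with a *Cd248* level below every 6 dpi library.

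Over the net interval from 1 to 6 dpi, 1 member was called higher (*Cd248*, background 6.91%) and 1 lower (*Hsd11b1*, background 5.21%). *Ly6a* and *Ly6c1* had means that were close on both days, with 10.71 and 10.86 log2 CPM for *Ly6a* and 8.40 and 8.44 for *Ly6c1* at 1 and 6 dpi. The estimate of *Pi16* was 0.74 (SE 0.38) and was not called.

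The other members, *Cd34*, *Gsn* and *Dpp4*, passed in no comparison. *Cd34*, a sialomucin shared by progenitor-like fibroblasts and endothelium (chr1:194938819-194961279, plus strand), had 394 to 601 CPM at 1 dpi, 424 to 799 CPM at 2 dpi and 125 to 418 CPM at 3 dpi. All 4 of its 3 dpi libraries were below all 3 of 2 dpi, but the spread was large because 3 dpi replicate 2 (125 CPM) was far under the others (343, 409 and 418 CPM), and the log2 fold change was -0.97 (SE 0.37, adjusted p = 0.16). *Cd34* was at 474 to 522 CPM at 4 dpi, at 228 CPM in the 5 dpi library and between 278 and 767 CPM at 6 dpi.

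*Gsn* encodes gelsolin, which severs and caps actin filaments, and lies at chr2:35256380-35307892, plus strand. It ranged from 3716 to 9893 CPM at 1 dpi, from 6363 to 11093 CPM at 2 dpi and from 2441 to 7668 CPM at 3 dpi. At 4 dpi replicate 3 had 9459 CPM where the others had 3028 and 3275 CPM, the 5 dpi library had 3839 CPM, and 6 dpi had 6905 to 13268 CPM. The estimate between 6 and 3 dpi was 1.03 (SE 0.44, adjusted p = 0.109), and DESeq2 called it (1.05, adjusted p = 0.0497). *Dpp4*, the peptidase CD26 (chr2:62330073-62412231, minus strand), was measured at 32 to 216 counts, or 3.94 to 14.1 CPM, in all libraries. The means of its replicated days differed by at most 0.57 on the log2 scale, and its SD within a day was between 0.46 and 0.71. Differences between these means were thus of the size of the spread between libraries. The single 5 dpi library, at 5.42 CPM, is not part of this range.

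From 1 to 2 dpi no member was called by edgeR or by DESeq2, where edgeR called 0.178% of all genes. All 10 estimates were above 0, with a median of 0.40 against 0.01 for all genes, and the largest was that of *Dpep1* (0.91, SE 0.37, adjusted p = 0.55), the 1 member with an unadjusted p under 0.05. Without 1 dpi replicate 1, 7 of the 10 estimates were above 0, their median was 0.19, and that of *Dpep1* was 0.57 (SE 0.35). From 4 to 6 dpi again no member was called by edgeR (background 0.513%), with 3 at an unadjusted p under 0.05, and DESeq2 called *Cd248*. In the latter comparison *Pi16*, *Ly6a* and *Cd248* were higher in every 6 dpi library than in any of 4 dpi, as 11.3% of genes were, and *Hsd11b1* was lower in every one, as 10.2% were. Between 4 and 3 dpi, *Ly6c1* was the 1 member called higher (background 1.63%) and *Hsd11b1* the 1 called lower (background 1.08%), and with the pattern as a term neither passed.

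Over the 17 libraries the members fell into sets by the likeness of their levels. *Ly6a* and *Ly6c1*, which share part of their transcript sequence, had the highest Pearson r of log2 CPM of any pair (0.93). With them, *Pi16* had 0.82 and 0.83. *Pi16* was as close to *Gsn* (0.83), and *Cd34* had 0.80 with *Ly6c1*, so that this set has no sharp edge. *Hsd11b1*, *Scara5* and *Dpep1* had r between 0.72 and 0.86 with each other, and *Cd248* had -0.83 with *Hsd11b1* and -0.68 with *Scara5*. *Hsd11b1* was near 0 with *Ly6c1* (-0.05). These values describe libraries that share days, depth and sex-linked pattern, and carry no test.

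**Figure D3:**
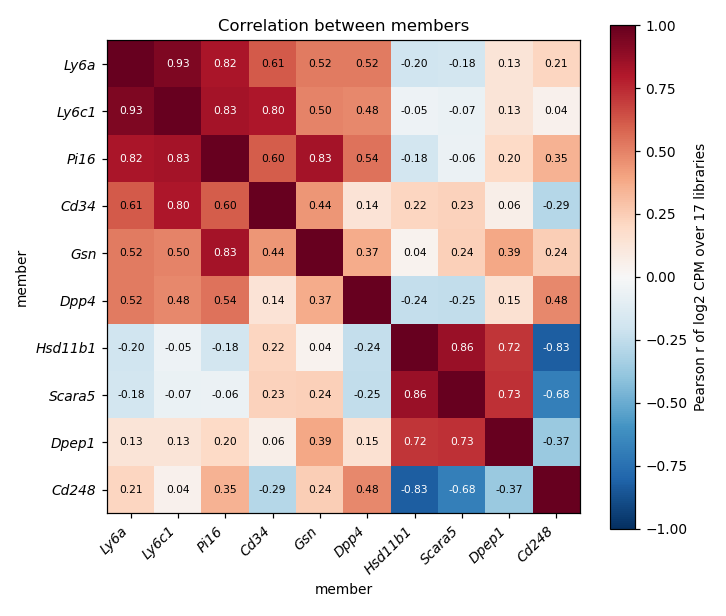
Pearson r of log2 CPM over 17 libraries for each pair of members, from blue (-1) to red (1). A red block holds *Ly6a*, *Ly6c1* and *Pi16*, another holds *Hsd11b1*, *Scara5* and *Dpep1*, and *Cd248* is blue against *Hsd11b1* (-0.83).

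Among 8919 genes with a mean of at least 100 counts, the gene closest to *Ly6a* in this measure was *Ly6c1*, followed by *Ifitm1* (0.91), an interferon-induced membrane protein, which was also next to *Ly6c1* (0.90). The closest to *Pi16* were *Tle6* (0.93), *Ypel3* (0.92) and *Mcoln1* (0.92), and to *Cd34* they were *Axl* (0.90), *Tek* (0.88) and *Herc1* (0.88). *Hsd11b1* was closest to *Ibtk* (0.96), *Rnase4* (0.94) and *Medag* (0.92), and *Scara5* to *Aldh1a1* (0.92), *Ppp1r2* (0.90) and *Rnase4* (0.90). *Dpep1* was closest to *Adh1*, *Penk* and *Abca6* (0.91 each), *Gsn* to *Clec3b* (0.94), *Entpd2* (0.91) and *G0s2* (0.90), and *Dpp4*, at its low counts, reached 0.81 with *C3*. Among the closest to *Cd248* were *Anxa6* (0.94) and *Gm13306* (0.93). The third gene for *Ly6a* was *Sgf29* (0.90) and for *Ly6c1* it was *Wac* (0.88). The others for *Dpp4* were *Ppil2* (0.79) and *Gstk1* (0.78).

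Other genes of the same populations were counted in the same comparisons. Of 16 further adventitial genes, 15 were tested, and 5 passed over the time course, as did 10 of 20 further genes of resting parenchymal fibroblasts, beside 15% of all genes. Between 3 and 1 dpi, 2 adventitial genes and 1 resting gene were called lower (2.68% of all genes) and none higher (4.33%). These were *Uchl1*, a deubiquitinating enzyme (-1.42, SE 0.20, adjusted p = 2.0e-04, 21.7 to 25.7 CPM against 55.8 to 67.9 CPM), *Sema3c*, a secreted semaphorin (-1.18, SE 0.32, adjusted p = 0.0320), and *Lum*, the collagen-binding proteoglycan lumican (-1.54, SE 0.37, adjusted p = 0.0153). The median over the adventitial genes tested was -0.20 and that over the resting genes was -0.29, against 0.05 for all genes.

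Between 6 and 3 dpi, a comparison that shares the 3 dpi libraries with the one above, each list had 5 genes called higher and 2 lower, of 15 and 20 tested, beside 9.46% and 10.3% of all genes. The calls lower, 2 in each list, were thus near the share of all genes. *Uchl1* (1.68, SE 0.21, adjusted p = 3.6e-05) and *Sema3c* (1.65, SE 0.32, adjusted p = 0.0016) led the rise of the adventitial genes, and *Efemp1*, an elastic fibre protein (-1.71, SE 0.41), and *Anxa3*, an annexin (-1.27, SE 0.30), were the genes that fell. Of the resting genes, *Ltbp4*, which binds latent TGF-β (1.97, SE 0.34), and *Lum* (1.90, SE 0.37) rose most, while *Fmo2*, a flavin monooxygenase, fell by 3.37 on the log2 scale (SE 0.46, adjusted p = 8.8e-05), from 82.9 to 214 CPM at 3 dpi to 9.95 to 25.5 CPM at 6 dpi. The growth factor receptor *Pdgfra* was also lower (-0.68, SE 0.24, adjusted p = 0.0487). In this comparison, as in that of 4 with 3 dpi, day and sex-linked pattern change together. Values with the pattern as a term are not given for these genes, so these rises and falls cannot be assigned to day alone. No gene of either list was called by edgeR between 2 and 1 dpi or between 6 and 4 dpi. Between 3 and 2 dpi, 2 adventitial and 4 resting genes were called lower and none higher, beside 1.12% and 1.82% of all genes. Between 4 and 3 dpi, 1 adventitial gene was called higher, and 1 resting gene was called higher and 1 lower, beside 1.63% and 1.08% of all genes. From 1 to 6 dpi, 2 adventitial genes were called higher and 1 lower, and 2 resting genes were called higher and 2 lower, beside 6.91% of all genes higher and 5.21% lower.

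**Figure D4:**
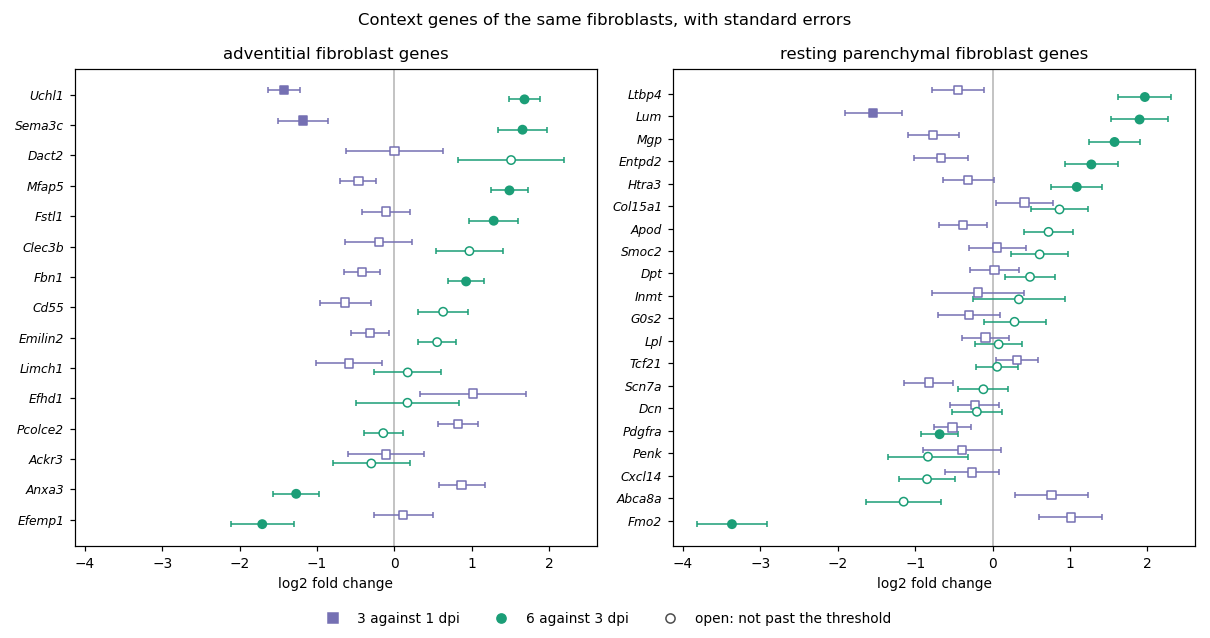
Log2 fold change with 1 standard error to each side for 15 adventitial and 20 resting parenchymal fibroblast genes, at 3 against 1 dpi (squares) and 6 against 3 dpi (circles), filled where the adjusted p was under 0.05. *Uchl1*, *Sema3c* and *Lum* are left of 0 in the first comparison and right of 0 in the second, and *Fmo2*, *Efemp1* and *Anxa3* are left of 0 in the second.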

How the data were processed

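Poly-A RNA of sorted CFs was profiled by bulk MARS-seq, which primes at the poly-A tail, so that levels were compared between libraries and not between genes. Demultiplexing (bcl2fastq 1.2.4), alignment to mm10 (STAR) and counting per gene (featureCounts, Ensembl GRCm38) were done by the authors. The deposited values are raw counts, not normalized, in a column for each library. PCR copies are not stated to have been collapsed, so counts are not counts of molecules.

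The members and gene lists were chosen with earlier results of these data known. Counts were tested in R (4.3.3) with edgeR (4.0.16). The filter kept genes that reached 10 counts in 3 or more libraries. TMM normalization was applied, day was a factor of 6 levels over all 17 libraries, and quasi-likelihood F-test p-values were adjusted by Benjamini-Hochberg over 14030 genes, with a threshold of 0.05. The procedure was checked on simulated counts with the same spread for every gene and known changes at 6 dpi alone. They held no outlying library and no sex-linked pattern, so the check does not cover these. The lone 5 dpi library, numbered 3 in its title, enters the time course and has no test of its own. CPM were computed from TMM-scaled library sizes, with a prior count of 2 on the log2 scale, and a standard error is the size of the log2 fold change over the square root of F. Replicates are separate samples by their labels and biological replicates by the methods. Replicate pairs differed by more than sampling noise, with at least 21.8 chi-square units per degree of freedom. All 10 members were named, with *Ly6c2* as a paralog, the 3 genes closest to each member (1 of them is not reported here), and for both context lists the 2 largest rises and falls among the genes called at 3 against 1 and 6 against 3 dpi. Alternatives were DESeq2 size factors, DESeq2 (1.42.0), no filter, a replicate block, a fit restricted to both days compared, each of 16 libraries left out, other scalings of levels, and, chosen after seeing the data, the sex-linked pattern as a term. Positions are from GENCODE vM21 and promoters from RefSeq, both of the build used by the authors.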

Additional observations from a re-analysis of the deposited data

Results flagged for a closer look

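In 3 dpi, the day with 4 libraries, each member's highest and lowest library was set against the others, 10 genes in all. The lowest *Cd34* level, that of replicate 2 (125 CPM against 343 to 418 CPM), lay apart by 0.835 of the whole range of that day. The highest *Cd248* level, also of replicate 2 (428 CPM against 200 to 223 CPM), lay apart by 0.853 of the range. Both ratios exceed the 95% critical value for 4 samples, which chance exceeds in about 1 of 20 groups. Without this library, *Cd34* was lower at 3 than at 2 dpi by an estimated -0.70 (adjusted p = 0.198), and *Cd248* was higher at 6 than at 3 dpi by 1.58 (adjusted p = 1.2e-04).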

How the results depend on the processing

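Of the 15 fold changes of members that passed the threshold, none turned its sign under any alternative run, and 28 of 193 recomputed values fell short of the threshold. No sign of a pairing by replicate number was seen. Deviations from the day means had a mean r of 0.0049 over 30 pairs of the same number (-0.265 to 0.333). Over 72 pairs of different numbers the mean was -0.0053 (-0.392 to 0.378). Means near 0 cannot exclude a pairing of some libraries. With the replicate block, 174 genes were called between 3 and 2 dpi, 243 between 4 and 3, 28 between 6 and 4 and 632 between 3 and 1 dpi, against 412, 380, 72 and 984 without it, and 1 member in place of 2 between 4 and 3 dpi. Between 3 and 2 dpi the block left 2 members in place of 3, since *Pi16* was lost (-1.44, adjusted p = 0.0761).

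With the sex-linked pattern as a term, the members called were 3 over the time course, 0 for 4 against 3, 1 for 6 against 3 and 1 for 6 against 1 dpi, in place of 7, 2, 6 and 2, and the genes called were 1102, 9, 323 and 779, with 12 for 2 against 1 and 504 for 3 against 1 dpi. *Dpep1* turned its sign in this fit, to 0.52, 0.68 and 0.41 for 4 against 3, 6 against 3 and 6 against 1 dpi. The estimate of *Cd248* between 3 and 1 dpi ranged from -0.014 (without 3 dpi replicate 2) to 0.44 with 1 library left out, and that of *Cd34* between 6 and 3 dpi from -0.060 (without 6 dpi replicate 3) to 0.78.

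DESeq2 called 3757 genes over the time course, 104 (78 higher, 26 lower) between 2 and 1 dpi, 1033 between 3 and 2, 857 (425 higher, 432 lower) between 4 and 3, 759 (421 higher, 338 lower) between 6 and 4 and 1615 between 3 and 1 dpi, and 1 member between 6 and 4 dpi. edgeR called 2099 over the time course, 25 (22 higher, 3 lower) between 2 and 1 dpi, 228 higher and 152 lower between 4 and 3 dpi and 33 higher and 39 lower between 6 and 4 dpi. Without a filter the counts were 3729, 153, 980, 866 and 882 for the time course and the 4 steps, with 5 members between 4 and 3 dpi and 2 between 6 and 4 dpi. A fit restricted to both days of a comparison gave 63, 252, 125 and 14 for the steps, 614 for 3 against 1 dpi and 1789 for 6 against 3 dpi (2766 in the fit of all libraries), with 0 members for 4 against 3 dpi.

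With 1 library left out, members called ranged from 5 to 7 over the time course, 0 to 0 between 2 and 1 dpi, 2 to 3 between 3 and 2, 0 to 2 between 4 and 3, 0 to 1 between 6 and 4, 1 to 3 between 3 and 1, 5 to 6 between 6 and 3 and 2 to 2 between 6 and 1 dpi. Genes called ranged from 1307 to 3466, 13 to 26, 46 to 734, 126 to 722, 3 to 1402, 401 to 1412, 1292 to 3863 and 763 to 2577 in the same order. Between 4 and 3 dpi, *Ly6c1* was lost without 3 dpi replicate 1, 2 or 4 or 4 dpi replicate 1 or 2, and *Hsd11b1* without 3 dpi replicate 1 or 3 or 4 dpi replicate 1 or 2. Between 3 and 1 dpi, *Ly6c1* was lost without 1 dpi replicate 3 (-1.37, adjusted p = 0.0630), and *Pi16* was gained without 1 dpi replicate 1 (-1.33, adjusted p = 0.0435) or 3 dpi replicate 3 (-1.33, adjusted p = 0.0337). Between 6 and 4 dpi, *Cd248* was gained without 6 dpi replicate 3 (1.24, adjusted p = 0.0200). The cause of these changes was not tested. Other scalings moved no difference in mean level between 3 and 1 or 6 and 3 dpi by as much as the SD between libraries.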
